A study of Mus musculus with 8 samples.

Results

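The epithelial keratins Krt7, Krt8, Krt18, Krt19, Krt20, Krt23, Krt36 and Krt80 were followed by gene symbol, and all 8 of them were found among the 39179 genes of a table of read counts. RNA of whole tissue had been sequenced in 8 mouse libraries, 3 called wild type and 5 from adenomas, which are benign tumours of gland-forming epithelium. All mice were on an inbred C57BL6/J background, carried VilCreER and received tamoxifen. VilCreER is a Cre recombinase that tamoxifen activates and that the villin promoter drives in intestinal epithelium. The wild-type libraries came from small intestine of mice with the genotype VilCreER+. The adenoma libraries came from small intestinal adenomas of VilCreER+ APCfl/+ mice, in which 1 of the 2 Apc alleles can be deleted in the epithelium, and Apc restrains Wnt signalling. The series describes the adenoma mice as aged, and ages in numbers, sexes and the time after tamoxifen were not given in the sources used here. Nothing said whether libraries of a group came from separate mice, and the p-values below cover no more than the spread among these libraries.

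Keratins are the intermediate filament proteins of epithelia. A type I (acidic) keratin pairs with a type II (basic) keratin, and these pairs assemble into filaments that are tied to desmosomes and give cells resistance to stress. Krt8 and Krt18 are the founding pair of simple epithelia. Krt19 and Krt20 join them in the intestine, where Krt20 marks differentiated villus cells. Krt7 is better known from ducts and bladder, and Krt36 is a hair-type keratin of nail and tongue. Of the 8, Krt7, Krt8 and Krt80 are type II, coded on chromosome 15, and Krt18, Krt19, Krt20, Krt23 and Krt36 are type I, of which Krt18 lies on chromosome 15 beside Krt8 and the others on chromosome 11.

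Krt23, Krt7 and Krt18 were called higher in adenoma and passed a test against a factor of 2. Krt19 was called higher without passing that test, and Krt8, the most abundant keratin in all 8 libraries, rose least of those called. Krt36 and Krt80, with few wild-type counts, were called higher too. Krt20 was not called, and its share of type I keratin was 50.3% ± 4.79 in wild type (SD, n = 3) and 14.8% ± 5.79 in adenoma (SD, n = 5), a description without a test. The ratio of summed type II to summed type I keratin overlapped between the groups. Adenoma 2 differed from the others, with less Krt20 and far more Krt36.

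The sequences just upstream of 4 members are shown because these genes span the range of change: Krt23 with the largest well-measured rise, the neighbours Krt18 and Krt8, which pair as proteins and changed by different amounts, and Krt20, which was not called. They are RefSeq sequence of GRCm38.p6, 5′ to 3′ on the gene's strand, and hold the bases from 250 before the RefSeq start up to the first base of any GENCODE exon, at chr11:99493138-99493370 (minus strand), chr15:102027966-102028179 (plus), chr15:102004483-102004592 (minus) and chr11:99438154-99438403 (minus). Capitals mark matches to the motifs named after the sequences.
Krt23: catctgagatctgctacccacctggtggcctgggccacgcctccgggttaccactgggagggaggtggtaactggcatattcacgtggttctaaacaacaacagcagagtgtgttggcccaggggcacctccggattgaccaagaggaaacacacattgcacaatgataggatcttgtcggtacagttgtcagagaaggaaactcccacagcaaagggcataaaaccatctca
Krt18: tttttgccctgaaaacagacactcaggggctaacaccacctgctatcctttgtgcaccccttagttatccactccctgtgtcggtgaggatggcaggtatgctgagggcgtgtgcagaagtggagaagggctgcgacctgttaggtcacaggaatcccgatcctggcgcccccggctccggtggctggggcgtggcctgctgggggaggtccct
Krt8: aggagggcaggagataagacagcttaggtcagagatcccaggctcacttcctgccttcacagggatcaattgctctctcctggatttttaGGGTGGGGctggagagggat
Krt20: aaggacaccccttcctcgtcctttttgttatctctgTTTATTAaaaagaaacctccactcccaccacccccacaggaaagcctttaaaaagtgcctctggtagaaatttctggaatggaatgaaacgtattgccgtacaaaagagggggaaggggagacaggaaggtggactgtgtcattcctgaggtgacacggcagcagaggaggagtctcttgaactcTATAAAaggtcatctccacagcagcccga

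Promoter sequences were at hand for 6 of the 8 members. In the 250 bases before each start, both strands were searched for 6 motifs. The TCF/LEF motif was CTTTGAA, with CTTTGAT as its other form. The AP-1 motif was TGAGTCA, with TGACTCA as its other form. The CDX motif was TTTATGA, with TTTATTA and also TTTACGA as other forms. The GC box of Sp and KLF factors was GGGCGG, and their CACC box was CCACACCC, with CCCCACCC as its other form. The TATA box was TATAAA, with TATAAG as its other form. No TCF/LEF or AP-1 letters were found in the 6 windows, against 7.48% and 4.46% of 32851 RefSeq promoters of the same length. Krt20 held a CDX match 214 bases before its start, a motif found in 8.03% of all promoters, and a TATA box 29 bases before it, found in 17% of them. Krt36 held a TATA box as well, at 46 bases. Krt7 had 4 GC boxes, where 32.7% of promoters have at least 1. The Krt7 window began inside the GENCODE gene, and all 4 matches lay past its first 39 bases, after which an annotated exon begins. The TATA box of Krt36 likewise lay past the first 85 bases of its window, after which an annotated exon begins. Krt8 had a CACC box on the other strand 160 bases before its start, a motif of 11.8% of promoters. These are matches of letters and say nothing on binding.

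Values are in CPM, a gene's count relative to the size of its library after TMM scaling (a trimmed mean over genes). Total counts ran from 18040301 to 28343915 per library. Apc itself stood at 191 to 211 CPM in wild-type libraries and 132 to 159 CPM in adenoma, counted over the whole gene, so this does not measure the deletion. Several libraries stood apart. Adenoma 2 held 246 CPM of the hindgut gene Hoxb13 and 157 CPM of the colon gene Car1, against at most 0.894 and 0.536 CPM in any other library. It had 0.470 CPM of Gata4, a factor of upper small intestine, against at least 68.4 CPM elsewhere, so its label of small intestine went against these markers. Pancreatic lipase (Pnlip) reached 190.0 CPM in wild type 1 and, in adenoma 5, 63.5 CPM. Xist was high in adenomas 2 to 5 alone, at 432 to 761 CPM, so sex pattern and group cannot be told apart except through adenoma 1, which had 1.17 CPM like wild type. A list of 16 pan-epithelial genes without keratins summed to 3236 to 3354 CPM over the wild-type libraries and 3570.3 to 4890.2 CPM over the adenomas, where adenoma 2 was lowest, and the 6 fibroblast genes to 1082 to 1445 CPM over the wild-type libraries and 2669 to 3369.8 CPM over the adenomas. In whole tissue, more cells of a type and more RNA per cell cannot be told apart.

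Of the 8 keratins, 7 were called higher in adenoma and 0 lower (p from edgeR's quasi-likelihood test, adjusted by Benjamini-Hochberg over 18345 genes, below 0.05), where 30.3% of all genes tested were called higher and 27.8% lower. The median log2 fold change of the 8 was 1.99, beside 0.04 over all genes tested. Krt7, Krt18 and Krt23 passed a test against a factor of 2, which 5.66% of all genes passed as higher. In 5 of the 8, each adenoma lay above each wild-type library, as in 29.3% of genes tested. All 8 passed the filter on low counts, Krt36 through adenoma libraries only, so its part in these counts and in the median adds no support. Without wild type 2, 4 members were called higher, namely Krt7, Krt18, Krt19 and Krt23, beside 25.6% of all genes. Without wild type 1 and adenoma 5, the libraries with pancreatic transcripts, the same 4 were called, beside 22.3% of all genes. Without adenoma 2 all but Krt20 were called, 7 in all, beside 34.0% of genes. A fit that takes the Xist pattern into account rests on adenoma 1 and called 4 higher, beside 16.8% of genes, and a fit with the library number as a block called 6, beside 18.2%. When the pan-epithelial genes were set to the same sum in each library, 5 keratins were higher and 1 lower. That scaling moved the median of all genes to -0.36, and 13.1% of genes were then higher and 40.9% lower.

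**Figure D1:**
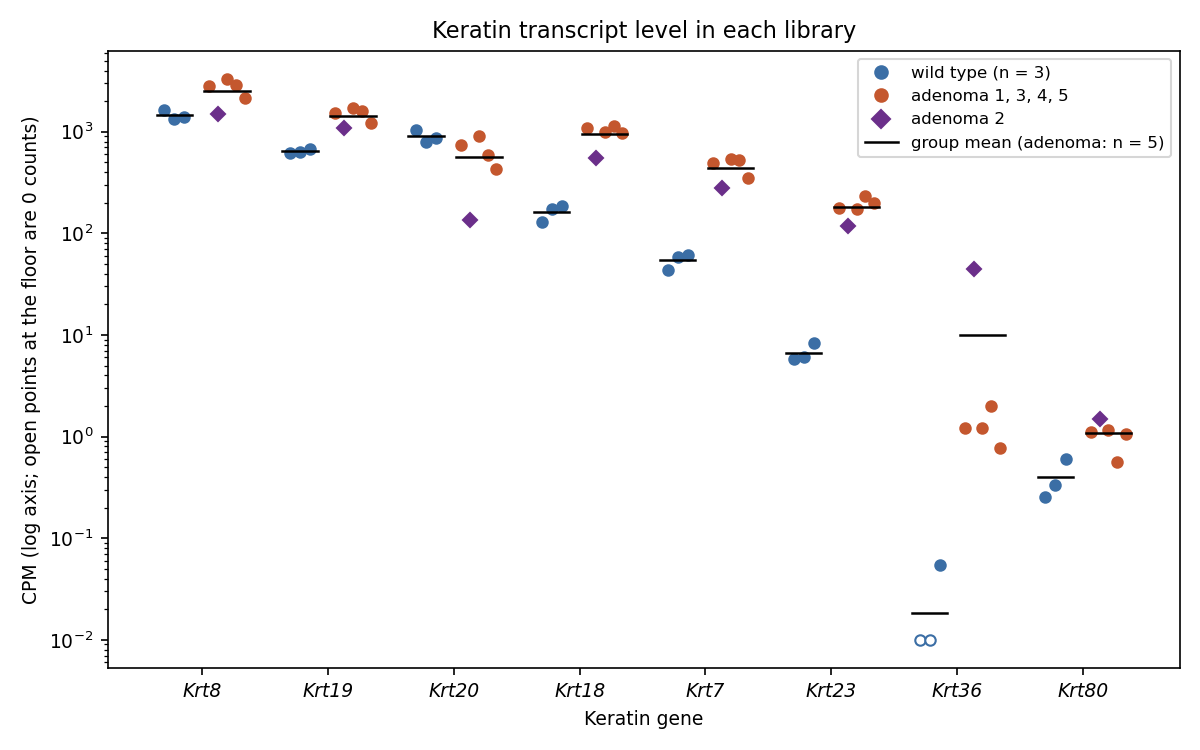
Level of each keratin in CPM (log axis) in the 3 wild-type libraries (blue), adenomas 1, 3, 4 and 5 (orange) and adenoma 2 (purple diamonds), with group means as black lines. Krt23, Krt7, Krt18, Krt19 and Krt36 were separate between the groups, and adenoma 2 was the lowest adenoma for Krt20 (136 CPM) and the highest for Krt36 (44.9 CPM).

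Krt8 (ENSMUSG00000049382, GRCm38 chromosome 15, 101996698 to 102004482, minus strand), the main type II keratin of simple epithelium, stood at 1624, 1345 and 1392 CPM in wild type 1 to 3 and at 2850.2, 1495, 3318, 2886 and 2142 CPM in adenomas 1 to 5. Adenomas 1, 3, 4 and 5 lay above each wild-type library, while adenoma 2 lay between them, so the groups overlapped. The means were 1454 ± 149 CPM over wild type (SD, n = 3) and 2538 ± 719 CPM in adenoma (SD, n = 5), for a log2 fold change of 0.80 ± 0.26 (adjusted p = 0.0273, edgeR quasi-likelihood test). This call was lost in 9 of 20 alternatives, among them pan-epithelial scaling, which gave 0.37 on the log2 scale (adjusted p = 0.124). It was also lost without wild type 2, wild type 3, adenoma 1, adenoma 3 or adenoma 4, at adjusted p of 0.0588 to 0.0869. Of the 36-base runs in its transcript, as long as a read, 33.9% also occur in other annotated transcripts, chiefly the pseudogene Krt8-ps, the largest shared part among the 8.

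Krt7 (ENSMUSG00000023039, GRCm38 chromosome 15, 101411043 to 101430313, plus strand), the other simple type II keratin, was at 43.4, 58.5 and 60.9 CPM in wild type, set against 492, 278, 540.1, 531 and 348 CPM in adenomas 1 to 5. Every adenoma lay above every wild-type library, adenoma 2 the least so. The means were 54.3 ± 9.50 CPM over wild type (SD, n = 3) and 438 ± 118 CPM in adenoma (SD, n = 5), for a log2 fold change of 3.01 ± 0.28 (adjusted p = 6.26e-05; 4.76e-04 against a factor of 2; edgeR). It overlaps the antisense gene Gm671, and the library kit did not keep strand.

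Krt80 (ENSMUSG00000037185, GRCm38 chromosome 15, 101347444 to 101370162, minus strand), a type II keratin found in many epithelia, was scarce. Its levels were 0.255, 0.334 and 0.600 CPM in wild type, set against 1.12, 1.50, 1.16, 0.562 and 1.05 CPM in adenomas 1 to 5, from 22 and 126 counts in all. Wild type 3 lay above adenoma 4, so the groups overlapped. The log2 fold change was 1.43 ± 0.41 (adjusted p = 0.0155, edgeR), and the call was lost in 5 of 19 alternatives: without wild type 1, without wild type 2, without wild type 1 and adenoma 5 together, under pan-epithelial scaling and in the fit with the Xist pattern, at adjusted p of 0.0569 to 0.101. Krt80 reached the level of the filter on low counts in 1 of 3 wild-type libraries and in 5 of 5 adenomas, so its call adds no support. Krt80 overlaps the antisense gene Gm35853.

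Among the type I keratins, Krt18 (ENSMUSG00000023043, GRCm38 chromosome 15, 102028180 to 102032027, plus strand), the usual partner of Krt8, was at 131, 173 and 185 CPM in wild type, set against 1087, 552, 996, 1142 and 974 CPM in adenomas 1 to 5. Adenoma 2 was well below the other adenomas and still above each wild-type library. The means were 163 ± 28.6 CPM over wild type (SD, n = 3) and 950.2 ± 233 CPM in adenoma (SD, n = 5), for a log2 fold change of 2.54 ± 0.27 (adjusted p = 1.21e-04; 0.00129 against a factor of 2; edgeR).

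Krt19 (ENSMUSG00000020911, GRCm38 chromosome 11, 100140810 to 100148665, minus strand), the smallest keratin and 1 of the partners of Krt8 in intestine, was at 615, 633 and 669 CPM in wild type, set against 1541, 1094, 1707, 1593 and 1213 CPM in adenomas 1 to 5. The groups were separate, and the wild-type libraries were close together. The log2 fold change was 1.16 ± 0.18 (adjusted p = 8.82e-04), with no call against a factor of 2 (adjusted p = 0.312, edgeR). Under pan-epithelial scaling it was 0.74 (adjusted p = 0.0014).

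Krt23 (ENSMUSG00000006777, GRCm38 chromosome 11, 99477974 to 99493137, minus strand), a less studied type I keratin, had the largest change among members counted well in both groups. It was at 5.75, 6.08 and 8.29 CPM in wild type, set against 178, 119, 172, 232 and 199 CPM in adenomas 1 to 5, and no adenoma came near the wild-type range. The means were 6.71 ± 1.38 CPM over wild type (SD, n = 3) and 180.2 ± 41.6 CPM in adenoma (SD, n = 5), for a log2 fold change of 4.75 ± 0.27 (adjusted p = 9.58e-06; 3.00e-05 against a factor of 2; edgeR). No run of 36 bases in Krt19, Krt20 or Krt23 was shared with another annotated gene.

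Krt20 (ENSMUSG00000035775, GRCm38 chromosome 11, 99428403 to 99438150, minus strand), the keratin of differentiated villus cells, was at 1036, 800.0 and 876 CPM in wild type, set against 738, 136, 907, 595 and 426 CPM in adenomas 1 to 5. Adenoma 3 lay within the wild-type range, adenomas 1, 4 and 5 lay below it, and adenoma 2 was lowest by far. The log2 fold change of -0.69 ± 0.49 did not pass the test (adjusted p = 0.252, edgeR). Without adenoma 2 it was -0.45 (adjusted p = 0.116). Under pan-epithelial scaling it was -1.15 and was called lower (adjusted p = 0.047). Of 10 genes of small intestinal epithelium, 4 were called lower (Vil1, Sis, Lct and Anpep) and 0 higher. Among all genes tested, 27.8% were called lower and 30.3% higher. The median log2 fold change of the 10 genes was -1.46. The 10 genes summed to 16699 to 24330.0 CPM over the wild-type libraries and 497 to 7512 CPM over the adenomas, with the lowest value in adenoma 2. The members differed: Alpi, intestinal alkaline phosphatase, stood at 751, 355 and 595 CPM in wild type, set against 1024, 7.84, 1058, 1997 and 2377 CPM in adenomas 1 to 5, and the log2 fold change of the intestinal factor Cdx2 was -0.11 (adjusted p = 0.789, edgeR). Neither was called. The part of these genes in the Krt20 result was not tested. Villin (Vil1) was at 2337, 1835 and 1969 CPM in wild type, set against 907, 355, 984, 828 and 638 CPM in adenomas 1 to 5.

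Krt36 (ENSMUSG00000020916, GRCm38 chromosome 11, 100102007 to 100105626, minus strand) had 1 count in wild type, in wild type 3, and 1079 counts in adenoma, most of them in 1 library. Its adenoma levels were 1.21, 44.9, 1.21, 1.99 and 0.779 CPM. Adenoma 2 was far above the rest, and the others were all above wild type. The ratio of summed counts was 512, with an exact 95% counting interval of 91.7 to 20250.3. Adenoma 2 held 957 of the adenoma counts, and without it, an alternative chosen after seeing the data, the ratio was 70.7 (12.5 to 2816). The edgeR call (adjusted p = 0.0306) was lost without any 1 wild-type library, without wild type 1 and adenoma 5 together, with no filter, with limma-voom and in the fit with the Xist pattern, at adjusted p of 0.0689 to 0.265. Without adenoma 2 it stood, with a fitted log2 fold change of 5.77 in place of 8.72 and an adjusted p = 1.49e-04. DESeq2 gave no adjusted p for Krt36. The sum of 9 hindgut and colon markers was also high in adenoma 2, at 576 CPM against 39.7 to 247 CPM in the other libraries. Hoxb13 gave 246 CPM and Car1 157 CPM of it. In adenoma 5, the next highest, Cd177 alone gave 219.8 CPM of that sum, against 61.8 CPM in adenoma 2. Mettl7b, at 16.5 CPM in adenoma 2, was below each wild-type library (25.0 to 40.5 CPM). All other genes of the list were highest in adenoma 2. The part of these markers in the Krt36 level was not tested.

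**Figure D2:**
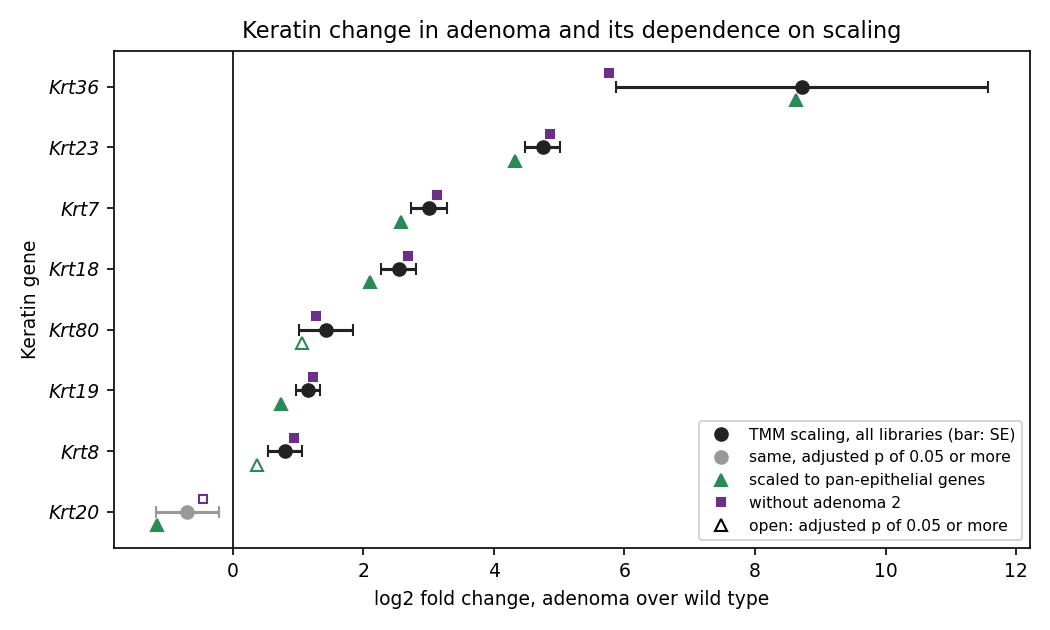
log2 fold change of each keratin, adenoma over wild type, with TMM scaling (circles, bar: SE), scaled to pan-epithelial genes (triangles) and without adenoma 2 (squares), with open or grey symbols at an adjusted p of 0.05 or more. Krt7, Krt18, Krt19, Krt23 and Krt36 kept filled symbols throughout, though the fitted value of Krt36 rests on 1 wild-type count. Krt8 and Krt80 lost them under pan-epithelial scaling.

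Keratins work in pairs, so ratios between them were compared within each library, which needs no scaling between libraries. Levels were taken per length of exon. There were 5 gene ratios with a two-sided exact permutation test over libraries, and with 3 against 5 libraries the smallest p such a test can give is 0.0357. All 5 reached it (adjusted p = 0.0357 over the 5 ratios), with each adenoma on the same side of each wild-type library. Each ratio holds Krt8 or Krt19, and the members were chosen with earlier results known, so the 5 are not independent support. Of single genes tested, 56.9% had groups that did not overlap, and no such share was taken over gene pairs.

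The ratio of Krt18 to Krt8, the usual partners, was 0.110, 0.175 and 0.181 in wild type 1 to 3 and 0.519, 0.503, 0.409, 0.539 and 0.619 in adenomas 1 to 5. On the log2 scale this was -2.72 ± 0.41 (SD, n = 3) against -0.96 ± 0.22 (SD, n = 5), higher by 1.76 in adenoma (exact permutation p = 0.0357). Adenoma 2, low in both genes, had a ratio like that of the other adenomas. The ratio of Krt19 to Krt8 went from 0.400, 0.497 and 0.507 to 0.571, 0.772, 0.543, 0.583 and 0.598, a log2 difference of 0.39. Krt7 to Krt8 was 0.00743, 0.0121 and 0.0122 in wild type and 0.0480, 0.0516, 0.0452, 0.0511 and 0.0451 in adenoma, a log2 difference of 2.22, and the adenomas were close together (SD of 0.09 on the log2 scale). Wild type 1 had the lowest ratio of the wild-type libraries in each of these 3.

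The order of Krt20 and Krt19 differed between the groups. Wild type had more Krt20 than Krt19 per length, with ratios of 1.62, 1.22 and 1.26, and adenomas had less, at 0.461, 0.120, 0.511, 0.359 and 0.338, a log2 difference of -2.07 (exact permutation p = 0.0357). Without adenoma 2 the difference was -1.72. Krt23 to Krt19 went from 0.0111, 0.0114 and 0.0147 to 0.137, 0.129, 0.119, 0.173 and 0.195, a log2 difference of 3.59. The summed type II level over the summed type I level was 0.867, 0.790 and 0.758 in wild type and 0.732, 0.700, 0.807, 0.734 and 0.680 in adenoma, so the groups overlapped. This sum over the members was planned with the same exact test and, unlike the 5 gene ratios, did not reach the smallest p or pass 0.05.

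**Figure D3:**
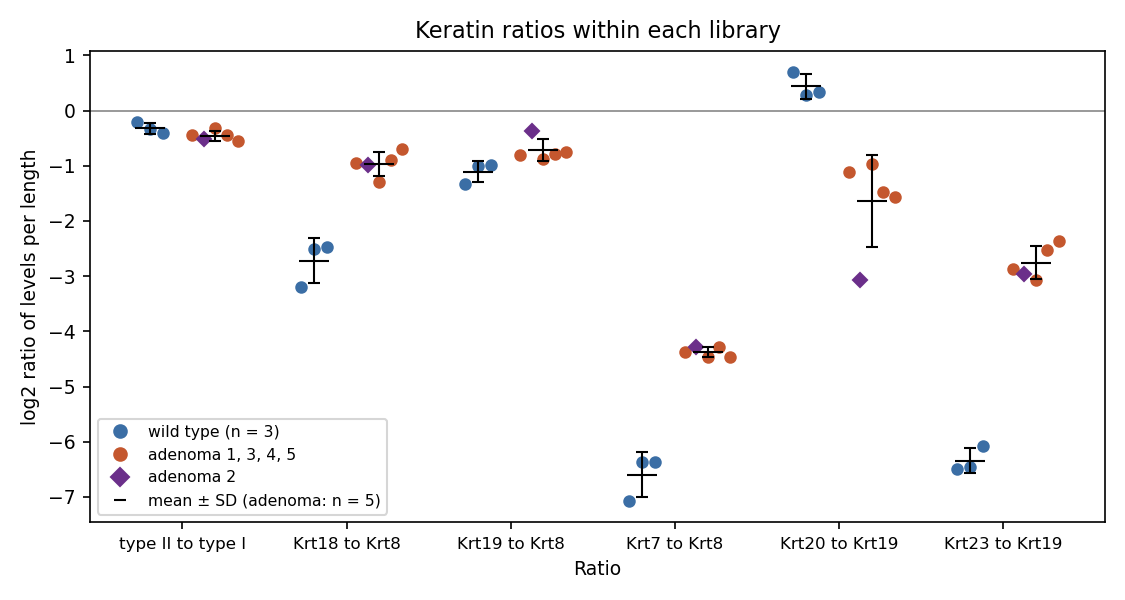
log2 ratios of keratin levels per length within each library (wild type blue, adenomas 1, 3, 4 and 5 orange, adenoma 2 purple; bars: mean ± SD). The summed ratio of type II to type I overlapped between the groups, whereas the 5 ratios between genes did not.

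The make-up of the type I pool differed in each adenoma from each wild-type library. Per length, Krt20 made up 55.8, 47.1 and 47.9% of type I keratin in wild type and 18.4, 6.16, 21.4, 14.6 and 13.2% in adenomas 1 to 5. Krt18 took 12.2% ± 2.42 in wild type and 35.9% ± 3.43 in adenoma, and Krt19 37.1% ± 2.32 and 42.5% ± 5.07. Krt23 was 0.460% ± 0.0898 of the pool in wild type and 6.34% ± 1.08 in adenoma. On the type II side Krt8 stayed dominant, at 98.9% ± 0.269 and 95.4% ± 0.286, with Krt7 at 1.04% ± 0.266 and 4.60% ± 0.283. These shares are descriptions, and they depend on the exon length given to each gene.

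**Figure D4:**
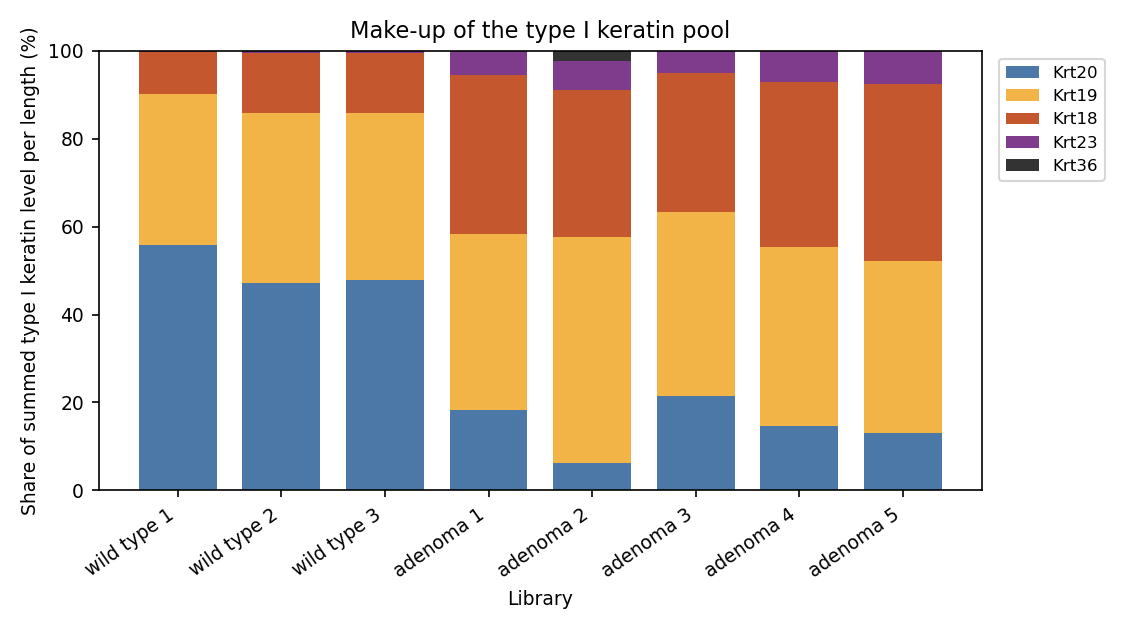
Share of the summed type I keratin level per length (%) taken by Krt20, Krt19, Krt18, Krt23 and Krt36 in each library. Krt20 was the largest part in wild type 1 to 3, and Krt19 or Krt18 in adenomas 1 to 5, with a visible part of Krt36 (2.34%) in adenoma 2 alone.

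In order of level per length, all 3 wild-type libraries ran Krt8, Krt20, Krt19, Krt18, Krt7, Krt23, Krt80, Krt36. In CPM per kilobase of exon, wild type had 743 ± 76.1 of Krt8, 469 ± 62.4 of Krt20, 345 ± 14.9 of Krt19 and 113 ± 19.9 of Krt18 (SD, n = 3). Adenomas 1, 3 and 4 ran Krt8, Krt19, Krt18, Krt20, Krt23, Krt7, Krt36, Krt80. Adenoma 2 put Krt23 before Krt20, and adenoma 5 put Krt18 before Krt19. The adenoma means were 1296 ± 367 for Krt8, 771 ± 141 for Krt19, 661 ± 162 for Krt18 and 291 ± 154 for Krt20 (SD, n = 5). Within libraries, Krt19 was above Krt18 in 4 of 5 adenomas. With the length of the principal transcript, which is shorter for Krt7, Krt19 and Krt80, Krt7 passed Krt23 in adenomas 1 and 3, and Krt19 was above Krt18 in adenoma 5 too.

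Other keratins were low. Of the other type I keratins, 22 were in the table, 6 passed the filter on low counts and 3 were called higher, with 0 lower. Of the other type II keratins 23 were in the table, 4 passed and 4 were called higher. Over all genes tested, 30.3% were higher and 27.8% lower. Krt4, Krt6a, Krt13, Krt17 and Krt90 passed through adenoma libraries only, so these counts are no support for a rise of keratins in general. The highest level of any of them was 23.8 CPM. The median log2 fold change was 2.31 over the 6 type I genes, and 4.83 over the 4 type II genes with Krt6a and Krt90, which had 0 wild-type counts, at their lower bound.

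Krt14, the type I keratin of basal cells in stratified epithelium, was at 0.866, 0.0557 and 0.655 CPM in wild type, set against 23.1, 9.11, 2.64, 5.71 and 6.06 CPM in adenomas 1 to 5, for a log2 fold change of 4.12 ± 0.95 (adjusted p = 0.00694, edgeR). Adenoma 1, not adenoma 2, was highest. Krt14 reached the level of the filter on low counts in 2 of 3 wild-type libraries and in 5 of 5 adenomas. Its call as higher therefore adds no support. Krt4 and Krt13, a pair of the oesophagus, had 1 and 3 wild-type counts and reached 4.99, 23.8, 1.65, 4.19 and 3.62 CPM and 1.07, 2.63, 2.64, 1.99 and 1.49 CPM in adenomas 1 to 5. Their ratios of summed counts were 405 (exact 95% interval 72.6 to 16032) and 36.1 (12.2 to 176). Adenoma 2 held 506 of 854 adenoma counts of Krt4, and without it the ratios were 202 (35.97 to 7990.2) and 33.2 (11.2 to 163). Krt6a and Krt90 had 0 wild-type counts and were at least 33.2-fold and 24.2-fold higher in adenoma, taking 3 counts in the 3 wild-type libraries together as the floor. Krt17, a keratin of injured and basal epithelium, was at 1.63, 13.1, 0.670, 0.649 and 4.60 CPM in adenomas 1 to 5, and no wild-type library had over 0.109 CPM. Krt17 passed the filter on low counts through adenoma libraries only, so its call as higher adds no support. Krt87 was at 0.611, 1.11 and 0.764 CPM and 2.10, 3.43, 3.66, 2.33 and 3.22 CPM (adjusted p = 0.00107, edgeR). Krt10, Krt12 and Krt15 were not called, with log2 fold changes of 0.09, -1.36 and 0.50. Krt35, which did not pass the filter on low counts, was like Krt36 highest in adenoma 2. It was at 5.63 CPM there and at most 0.0557 CPM in any other library. The 8 genes of the stratified epithelium list other than Krt5 and Krt14 summed to 0.0509 to 0.390 CPM over the wild-type libraries and 6.62 to 17.0 CPM over the adenomas. Of these, Dsg3, Ivl and Sprr1a passed the filter on low counts, through adenoma libraries only, so their calls as higher add no support. The defining genes Trp63 and Krt5 were at most 0.303 and 0.0939 CPM in any library, and Sprr1b had 0 counts in all 8. The part of these genes in the keratin values was not tested.

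**Figure D5:**
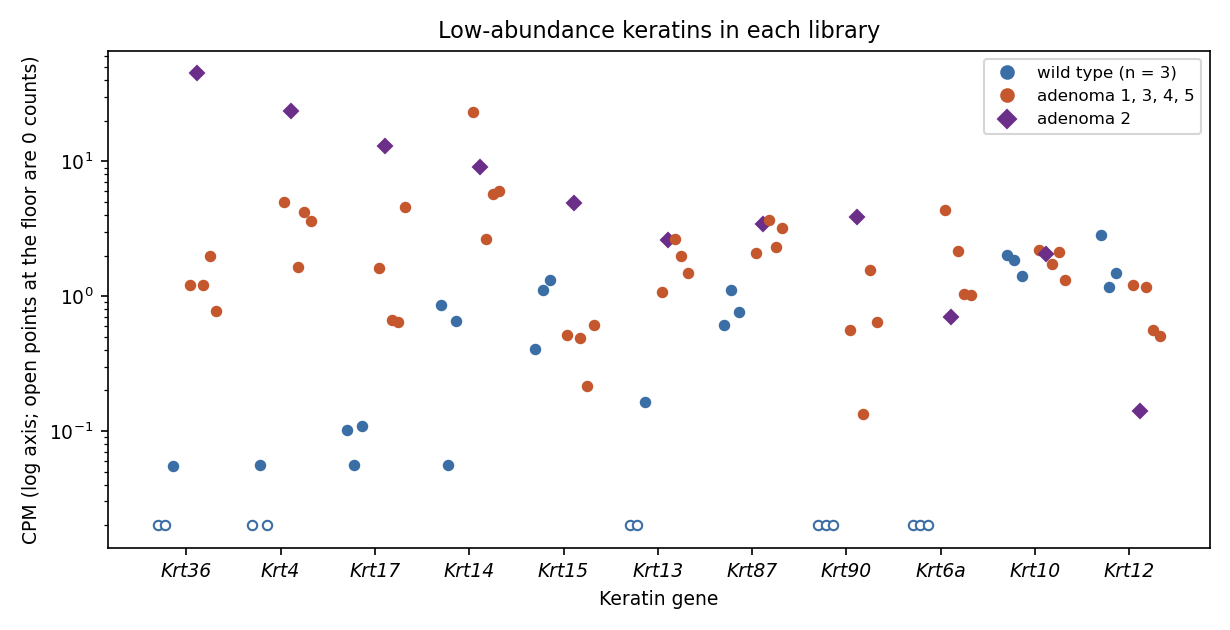
CPM (log axis) of Krt36 and the other low keratins in wild type (blue), adenomas 1, 3, 4 and 5 (orange) and adenoma 2 (purple diamonds), with open points for 0 counts. Adenoma 2 was the highest adenoma for Krt36, Krt4, Krt17, Krt15 and Krt90, and adenoma 1 for Krt14 and Krt6a.

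Keratin filaments end at desmosomes, where 5 of 11 genes were called higher and 2 lower, and the median log2 fold change was 0.28. Among all genes tested, 30.3% were higher and 27.8% lower. Of the 5, Dsg3 passed the filter on low counts through adenoma libraries only, and Dsc3 reached it in 1 of 3 wild-type libraries. Pkp1, a plakophilin that binds keratin-linked desmoplakin, had the smallest adjusted p of them, at 23.1, 26.1 and 26.9 CPM in wild type, set against 111, 94.5, 87.1, 93.3 and 74.1 CPM in adenomas 1 to 5 (log2 fold change 1.86 ± 0.14, adjusted p = 2.75e-05, edgeR). Plakoglobin (Jup) rose by 0.70 on the log2 scale and Perp by 0.66. Dsg3, a desmosomal cadherin of stratified epithelium, was low, at 3.50, 1.55, 2.14, 2.46 and 3.79 CPM in adenoma from 2 wild-type counts.

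Of 9 hemidesmosome genes, which anchor cells to the basement membrane, 6 were higher and 1 lower, with a median of 0.42. Lamb3, which encodes a laminin chain, rose from 37.1, 19.4 and 31.5 CPM in wild type 1 to 3 to 223, 255, 245, 224 and 182 CPM in adenomas 1 to 5. Cd151, a tetraspanin bound to integrins, rose by 0.66 on the log2 scale. Dst, a plakin, was the lower one, with a log2 fold change of -1.30 ± 0.15 (adjusted p = 2.00e-04, edgeR).

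Of 14 cytolinkers and filament regulators, 7 were called higher and 0 lower, and the median was 0.29. The plakin periplakin (Ppl) rose by 1.11 on the log2 scale, Fbf1 by 1.25, the small heat shock protein gene Hspb1 by 1.76 and the ubiquitin ligase gene Stub1 by 0.43. The shares over all genes given for desmosomes apply to both of these lists too.

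The protein-coding genes with the most similar pattern over the 8 libraries were found among 11529 with a mean of at least 5 CPM, by the root mean square difference of log2 CPM after each gene was centred on its own mean. For Krt7 they were Tnfrsf12a, Ephb3 and P4ha2, at differences of 0.194, 0.237 and 0.260. Tnfrsf12a, the receptor for TWEAK, ran from 8.29 to 8.71 CPM in wild-type libraries and from 36.6 to 74.5 CPM in adenoma. For Krt18 they were Pla2g12a, Pde10a and Samd5 (0.0883, 0.128 and 0.154), and for Krt8 Grhpr, Perp and Hist1h2ab (0.123, 0.125 and 0.125), of which Perp is a desmosomal protein. Krt19 was closest to Ippk, Lss and Nes (0.0882, 0.0891 and 0.0954), and Nes encodes nestin, another intermediate filament protein. Krt23 was closest to Serpine2, Vill and Syt8 (0.253, 0.260 and 0.288).

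Krt20 was closest to Sowaha, Aqp11 and Clca4b, at 0.0914, 0.153 and 0.166. Like Krt20, none of these 3 was called, and each was lowest in adenoma 2, with Clca4b at 174 CPM there. Krt36 was closest to Tgm4, Sval1 and Mt4, at larger differences of 0.432, 0.667 and 0.713. All 3 were highest in adenoma 2, with the transglutaminase gene Tgm4 at 223 CPM. Krt80 was closest to Plekhg5, Rcor2 and Nos3 (0.251, 0.257 and 0.270). The measure follows the group difference as well as the spread within groups, and it is a description without a test.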

How the data were processed

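RNA was extracted with RNeasy kits and made into TruSeq RNA v2 libraries, a kit that does not keep strand, and read as paired ends of 36 cycles, per the labels' protocols. The authors deposited raw counts per gene. FastQC, TopHat2 and HTSeq were used with GRCm38, per the submitters' processing notes, and their versions, the annotation and the strand setting were not given in the sources used here. Copies and overlapping genes can therefore lower or blur counts.

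Symbols, positions and exon lengths came from GENCODE M21, which gave symbols to 37607 of 39179 identifiers. Of these genes 18345 passed filterByExpr. They were scaled by TMM and tested with robust quasi-likelihood fits in edgeR 4.0.16 (R 4.3.3), with glmTreat for a factor of 2, and Benjamini-Hochberg adjustment at 0.05. The SE is the log2 fold change over the square root of F. Ratios used counts plus 0.5 per exon length and SciPy 1.17.1. Intervals and floors cover counting error only. On simulated counts modelled on this comparison (18345 genes), the test recovered 48% of 2-fold and 87% of 4-fold changes. Far fewer genes were changed there, with 139 called against 10657 in the data. The adjusted cut-off was therefore stricter, and these rates do not describe the real comparison. Same-numbered libraries did not deviate together (correlations of -0.02, 0.05 and 0.06), so no block was used.

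The members, gene lists and tests were chosen with earlier results of these data known. Named were all members, other keratins with a mean of at least 0.5 CPM, up to 4 list members with the smallest adjusted p, and the 3 most similar genes of each member. Part of these are reported. Alternatives were other scalings, filters and libraries, DESeq2 1.42.0, limma-voom (limma 3.58.1), a replicate block and the sex pattern as a covariate. Eppk1 and Krt85 were not analysed here, nor were Gm671, Gm35853 and Krt8-ps.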

Additional observations from a re-analysis of the deposited data

Results flagged for a closer look

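Of 24 values over the 5 adenomas, 6 had an extreme library whose gap to its nearest neighbour was above Dixon's critical value of 0.710 of the range. Chance flags about 1 group in 20. In all 6 the library was adenoma 2. Krt36 was at 44.9 CPM there, Krt4 at 23.8 CPM and Krt15 at 4.88 CPM, against at most 1.99, 4.99 and 0.609 CPM in the other adenomas. Krt18 was at 552 CPM, against at least 974 CPM in the others. The log2 ratio of Krt19 to Krt8 was highest in adenoma 2, at -0.37, and that of Krt20 to Krt19 lowest, at -3.06. Gaps for Krt18 and both ratios were only just above the critical value, at 0.714, 0.728 and 0.715.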

How the results depend on the processing

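Krt7, Krt18, Krt19 and Krt23 were called higher under each of 20 alternatives, with log2 fold changes of 2.58 to 3.18, 2.11 to 2.74, 0.74 to 1.27 and 4.32 to 4.93. No member changed sign in any of its alternatives. The count of members called higher was 4 without wild type 1 and adenoma 5 and also with the sex pattern as a covariate, and leaving out each library gave 4 to 7. The count called lower was 1 (Krt20) under pan-epithelial scaling and 0 otherwise. With the replicate block, 6549 genes were called in place of 10657 and Krt8 lost its call (adjusted p = 0.115), while no other member's call changed. With the sex pattern, where the comparison rests on adenoma 1 alone, 5372 genes were called. Leaving out each library gave log2 differences of 1.53 to 1.89 for Krt18 to Krt8, 0.28 to 0.45 for Krt19 to Krt8, 1.99 to 2.35 for Krt7 to Krt8, -2.24 to -1.72 for Krt20 to Krt19 and 3.49 to 3.71 for Krt23 to Krt19. Their smallest possible exact p was then 0.0571 or 0.0952, and each ratio was at it. The summed ratio of type II to type I was -0.14 on the log2 scale (adenoma less wild type), -0.12 with the longest transcript or with the principal transcript, an alternative chosen after seeing the data. Causes were not tested. Depth limits Krt36 and Krt80, which were not tested with a filter of 5 CPM.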

Other observations

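The other intermediate filaments went both ways, with 3 of 9 genes called higher and 4 lower, their median log2 fold change being 0.05, where 30.3% of all genes were higher and 27.8% lower. Lmna, which encodes the nuclear lamins A and C, rose from 98.2, 117 and 113 CPM in wild type 1 to 3 to 398, 316, 467, 424 and 315 CPM in adenomas 1 to 5, for a log2 fold change of 1.81 ± 0.17 (adjusted p = 7.16e-05, edgeR quasi-likelihood test). Nes, nestin, rose by 1.23 on the log2 scale. Gfap of enteric glia and Prph of neurons fell, with log2 fold changes of -1.96 and -1.51. Gfap was low, with 67 wild-type and 36 adenoma counts. The part of glia and neurons in the Gfap and Prph values was not tested. Des, the desmin of muscle, fell by 0.98 on the log2 scale. It is also on the list of 6 smooth muscle genes, of which Des and Myh11 were called lower and which summed to 869 to 1571 CPM over the wild-type libraries and 397 to 995 CPM over the adenomas, and the part of smooth muscle in the Des value was not tested. Vimentin (Vim), named after its values were seen, was at 71.5, 69.8 and 66.6 CPM in wild type, set against 117, 401, 140.1, 114 and 134 CPM in adenomas 1 to 5, highest in adenoma 2.

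Mesothelial cells also make Krt7, Krt8, Krt18 and Krt19. The 6 mesothelial markers summed to 6.63 to 25.5 CPM over the wild-type libraries and 14.7 to 38.7 CPM over the adenomas. Msln, at a mean of 4.36 CPM in wild type, made up most of it in adenoma, at 23.8, 12.2, 16.3, 18.5 and 34.3 CPM, while Wt1 was at most 0.233 CPM and Bnc1 at most 0.237 CPM in any adenoma, against up to 1.58 and 1.58 CPM in wild type. The 8 pancreatic acinar genes summed to 956 CPM in wild type 1 and, in adenoma 5, to 747 CPM. The other 6 libraries had 44.0 to 150.1 CPM. Krt7 and Krt19, which pancreatic ducts also make, were lowest in wild type 1 among wild-type libraries and second lowest in adenoma 5 among adenomas. Acinar genes do not measure duct cells, and the part of mesothelial and pancreatic cells in the keratin values was not tested.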
